A study of Homo sapiens with 32 samples.

Results

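The genes described here are the HOX cluster genes of 3 Ewing sarcoma cell lines. Membership was set by symbol: every gene named HOXA, HOXB, HOXC or HOXD followed by a number was taken. This choice was made with earlier results of these data known. The rule gave 39 of the 28278 gene symbols in the count tables. The same 39 genes were found by Ensembl identifier among the 60199 genes of the knockdown table.

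HOX genes encode homeodomain transcription factors that give cells their position along the body axis. They lie in clusters in which the order along the chromosome follows the order of expression along the axis, from the anterior genes with low numbers to the posterior genes with high numbers. Genes of the same number in different clusters are paralogs. The clusters are among the best known targets of Polycomb: EZH2 is the methyltransferase of Polycomb Repressive Complex 2 (PRC2) that places H3K27me3, and SUZ12 is a core subunit that the complex needs. STAG2 and STAG1 are alternative subunits of cohesin, the ring complex that folds chromatin into loops. Posterior HOXD genes, HOXD13 among them, are known to be highly expressed in Ewing sarcoma.

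All samples came from Ewing sarcoma lines. In A673, which carries the EWS::FLI1 fusion, the KO clones were made in a clone with an inducible Cas9 (genotype iCas9, called WT clone below). The proficient group holds libraries of that clone and of the parental line, which lacks the Cas9. Experiment 1 had 3 proficient libraries and 2 STAG2 KO clones, experiment 2 had 3 proficient libraries and 3 clones each of STAG2 KO, EZH2 KO and SUZ12 KO, and experiment 3 had 2 proficient libraries and 3 libraries labelled STAG1 KO. In experiment 4, parental A673 was either transfected with an siRNA against STAG2 (siSTAG2, n = 3) or mock-transfected (siC, n = 3). SK-N-MC with iCas9 was compared with its STAG2 KO, and A4573, a line without STAG2 protein whose libraries are labelled iCas9 too although the study's methods describe a transfected Cas9 plasmid for it, with cells in which STAG2 was restored by knock-in (KI), with 1 library in each of these 4 arms. Each KO library is 1 clone, so differences between clones other than the targeted gene cannot be told apart from its loss. No label ties libraries of one group to separate cultures, and p-values measure only the spread between these libraries.

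The 22 A673 KO and control libraries held 15734628 to 20663679 counts, the 4 libraries of the pairs 29322507 to 32261248, and the knockdown libraries 6852340 to 8184632 recovered reads. STAG2 RNA was 256 to 361 CPM (a gene's count over the library total, TMM-adjusted, on the usual CPM scale) in the proficient A673 libraries and 42.4 to 69.4 CPM in 4 STAG2 KO clones, while the STAG2 KO clone numbered 24 of experiment 1 kept 184 CPM. In experiment 2, EZH2 was 172 to 194 CPM in the controls and 28.4 to 55.3 CPM in EZH2 KO, and SUZ12 was 60.3 to 67.1 CPM and 11.3 to 20.6 CPM in SUZ12 KO. STAG1 was 57.8 and 69.6 CPM in the controls of experiment 3, 15.1 and 33.3 CPM in the libraries labelled STAG1 KO no. 5 and no. 7, and 61.5 CPM in the library labelled STAG1 KO no. 1, which went against its label at the RNA level. STAG2 RNA was 281 CPM in SK-N-MC WT and 179 CPM in its KO, and 32.3 CPM in A4573 WT and 85.2 CPM in its KI. RNA can remain where a frameshift removes the protein. Of 8 Ewing sarcoma markers, 7 were detected in every group and CD99 was listed at 0 in every count library. In the knockdown libraries CD99 was at 5944 to 6707 normalised reads in siC and 3723 to 3908 in siSTAG2. The 0 is thus not read as a lack of CD99 RNA in A673. The STAG2 KO clone no. 5 of experiment 2 stood apart: the mean chi-square per gene between its counts and those of clones no. 3 and no. 2 was 105 and 131, against 24.02 between those clones. Values that rest on it are given with and without it.

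The clusters differ in length and in the number of genes they hold. By GENCODE on GRCh38, the 11 HOXA genes lie on the minus strand of chromosome 7, the 10 HOXB genes span 200.2 kb (chr17:48528526-48728750, minus strand), the 9 HOXC genes 117.2 kb (chr12:53938831-54056030, plus strand) and the 9 HOXD genes 98.19 kb (chr2:176092721-176190907, plus strand). Below, paralog numbers 1 to 3 are called anterior, 4 to 8 central and 9 to 13 posterior.

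RefSeq (GRCh38.p14) gave a promoter for 20 of the 39 genes. PRC2 is known to reside at CpG-rich promoters, so the CG pairs in the 250 bases before each start were counted; the letters CG read the same on both strands. The 20 HOX promoters held a median of 20.5 CG against 11 over all 35116 promoters of the table. Of these 20, 9 belonged to HOXA, 8 to HOXD, 2 to HOXC and 1 to HOXB. The 4 promoters printed here overlap no annotated exon and belong to genes on which the results turn: HOXA13, at the end of the cluster that appeared in the PRC2 KO clones; HOXA6 and HOXA9, its members that stayed near 0; and HOXD13, which was higher in STAG2 KO. Capitals mark each CG.
HOXA13 promoter: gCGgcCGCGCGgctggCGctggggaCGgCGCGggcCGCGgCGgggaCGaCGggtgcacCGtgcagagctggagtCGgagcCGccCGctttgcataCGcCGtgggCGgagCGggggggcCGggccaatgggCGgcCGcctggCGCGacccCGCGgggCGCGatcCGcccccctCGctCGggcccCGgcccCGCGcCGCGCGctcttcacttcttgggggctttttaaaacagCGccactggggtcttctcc
HOXA6 promoter: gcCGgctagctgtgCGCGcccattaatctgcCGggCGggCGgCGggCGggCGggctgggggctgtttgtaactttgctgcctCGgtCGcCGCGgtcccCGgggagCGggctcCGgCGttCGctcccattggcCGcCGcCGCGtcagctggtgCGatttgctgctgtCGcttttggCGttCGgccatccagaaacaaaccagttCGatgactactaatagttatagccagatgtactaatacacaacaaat
HOXA9 promoter: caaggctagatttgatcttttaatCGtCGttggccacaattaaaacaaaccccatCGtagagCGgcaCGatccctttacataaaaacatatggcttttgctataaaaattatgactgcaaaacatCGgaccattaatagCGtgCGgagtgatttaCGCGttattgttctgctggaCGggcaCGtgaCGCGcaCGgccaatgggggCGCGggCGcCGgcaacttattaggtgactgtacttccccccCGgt
HOXD13 promoter: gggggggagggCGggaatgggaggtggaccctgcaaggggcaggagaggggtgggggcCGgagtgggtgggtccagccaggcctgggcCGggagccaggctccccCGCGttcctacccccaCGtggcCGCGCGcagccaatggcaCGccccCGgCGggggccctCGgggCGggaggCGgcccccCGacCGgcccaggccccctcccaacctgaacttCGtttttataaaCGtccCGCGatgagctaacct

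HOXA13 (chr7:27200092-27200341, minus strand) held 40 CG, and 2.16% of all promoters held as many. HOXA6 (chr7:27147775-27148024, minus strand) held 27, as many as 17.7% of promoters, and HOXA9 (chr7:27165538-27165787, minus strand) held 20, as many as 32.4%. HOXD13 (chr2:176092471-176092720, plus strand) held 21, as many as 30.2%. HOXA9 and HOXD13, 1 gene that was not detected in A673 controls and 1 that was among the highest, thus had near-equal counts of CG in this window.

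In the 8 proficient A673 libraries, HOXD genes gave 60.1 to 70.1% of the summed CPM of all HOX genes, HOXB genes 18.5 to 24.4%, HOXC genes 11.03 to 17.1%, and HOXA genes none. Not a single count fell on any of the 11 HOXA genes in these 8 libraries; 3 counts, the limit that a count of 0 allows, correspond to 0.177 CPM on average in the controls of experiment 2. Per kb of the MANE Select transcript, the highest levels over the 8 libraries were those of posterior and central HOXD genes: HOXD9 at 58.3 ± 17.5 CPM per kb (SD, n = 8), HOXD11 at 47.0 ± 11.8, HOXD10 at 45.5 ± 23.6, HOXD8 at 32.4 ± 5.09 and HOXD13 at 27.4 ± 2.10. The first 3 of these overlapped within their SDs. HOXB7 at 18.7 ± 1.70, HOXD4 at 18.3 ± 7.39, HOXB2 at 13.7 ± 2.66, HOXC10 at 12.2 ± 4.61 and HOXC6 at 10.6 ± 1.07 CPM per kb came next, and the SD ranges of neighbours in this order overlapped. The controls were not alike between experiments: HOXD10 was at 49.2, 50.3 and 50.6 CPM in experiment 2 and at 141 and 153 CPM in experiment 3, so the KO groups were compared with controls of their own experiment. Within experiment 2 the order was HOXD9 at 43.3, HOXD11 at 37.1, HOXD8 at 31.6, HOXD13 at 29.3 and HOXD10 at 28.0 CPM per kb.

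Some HOX genes share exons or lie opposite another transcript, and the libraries did not keep the strand. HOXB3 shares exons with HOXB4 and HOXB6, HOXC6 with HOXC4 and HOXC9, and HOXD10 with HOXD11. How the counting divided such reads is not given in the sources used here, so levels within each of these sets are uncertain.

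The loss of PRC2 was read from the 3 EZH2 KO and 3 SUZ12 KO clones of experiment 2, against the 3 proficient libraries of that experiment, which both comparisons share. The HOXA cluster, silent in the controls, was expressed in every one of the 6 clones. Against these controls HOXC11, HOXC12, HOXC13, HOXB13 and HOXD13, all posterior genes, rose in both KOs, whereas HOXD9 and HOXD10 fell in both and HOXD8 and HOXD11 in SUZ12 KO. Proficient libraries of experiments 1 and 3 reached 4.72 CPM for HOXC11, 11.98 CPM for HOXC12 and 31.4 CPM for HOXB13. The EZH2 KO clones overlapped these levels for all 3 genes, and the SUZ12 KO clones for HOXB13. HOXC13 and HOXD13 were above the proficient libraries of all 3 experiments in all 6 clones. The summed HOXA counts were 0, 0 and 0 in the controls, 516 to 734 in EZH2 KO and 674 to 794 in SUZ12 KO. This was 28.2 to 35.4 CPM and 32.9 to 42.9 CPM, or 4.86 to 6.59% and 5.74 to 7.44% of the summed CPM of all HOX genes. The share of HOXD was 52.1 to 54.8% in EZH2 KO and 50.8 to 52.4% in SUZ12 KO, outside the range of 61.7 to 67.0% in the 3 controls.

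HOXA7, a central gene, was at 8.63, 5.84 and 7.83 CPM in the EZH2 KO clones and at 11.4, 7.71 and 11.2 CPM in the SUZ12 KO clones. HOXA10, a posterior gene known for its part in the developing uterus and in blood progenitors, was at 5.88, 5.35 and 4.87 CPM and at 4.10, 5.54 and 7.67 CPM, respectively. All 6 clones were thus above the controls for both genes, and the EZH2 KO and SUZ12 KO clones overlapped.

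HOXA4, a central gene, was at 3.28, 3.06 and 2.77 CPM in EZH2 KO and at 3.81, 4.08 and 4.70 CPM in SUZ12 KO. HOXA2, which specifies the second branchial arch, was at 2.12, 2.24 and 1.91 CPM in EZH2 KO and at 2.001, 1.32 and 2.49 CPM in SUZ12 KO. HOXA3, a gene of pharyngeal development, was at 2.12, 0.98 and 1.67 CPM and at 2.15, 1.54 and 2.92 CPM. Each was at 0 in the 3 controls.

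HOXA13, the most posterior gene, needed for hand and foot and for the genital tract, was at 1.69, 1.80 and 2.62 CPM in EZH2 KO and at 2.10, 1.18 and 1.78 CPM in SUZ12 KO. HOXA11, a gene of the forelimb and uterus, was at 1.59, 1.80 and 1.53 CPM in EZH2 KO and at 1.42, 3.18 and 2.86 CPM in SUZ12 KO. HOXA5, a gene of lung development, was lower, at 1.74, 0.66 and 1.10 CPM and at 1.03, 1.41 and 1.51 CPM. HOXA6 and HOXA9 stayed near 0: HOXA6 had 0.10 to 0.27 CPM in the 6 clones, and HOXA9 had no count in 5 clones and 0.11 CPM in SUZ12 KO no. 3. HOXA9 shares exons with a read-through transcript and a microRNA gene, so reads from it could have been assigned elsewhere.

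Per kb of transcript, the levels did not follow the order along the cluster. In EZH2 KO, HOXA7 was at 3.69 ± 0.71 CPM per kb (SD, n = 3), HOXA10 at 2.11 ± 0.20 and HOXA4 at 1.80 ± 0.15, while HOXA13 was at 0.41 ± 0.10 and HOXA3 at 0.53 ± 0.19. In SUZ12 KO, HOXA7 was at 5.01 ± 1.03, HOXA4 at 2.49 ± 0.27 and HOXA10 at 2.27 ± 0.71 CPM per kb. These levels were far below those of HOXD9, at 43.3 ± 2.85 CPM per kb in the controls of this experiment.

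**Figure D1:**
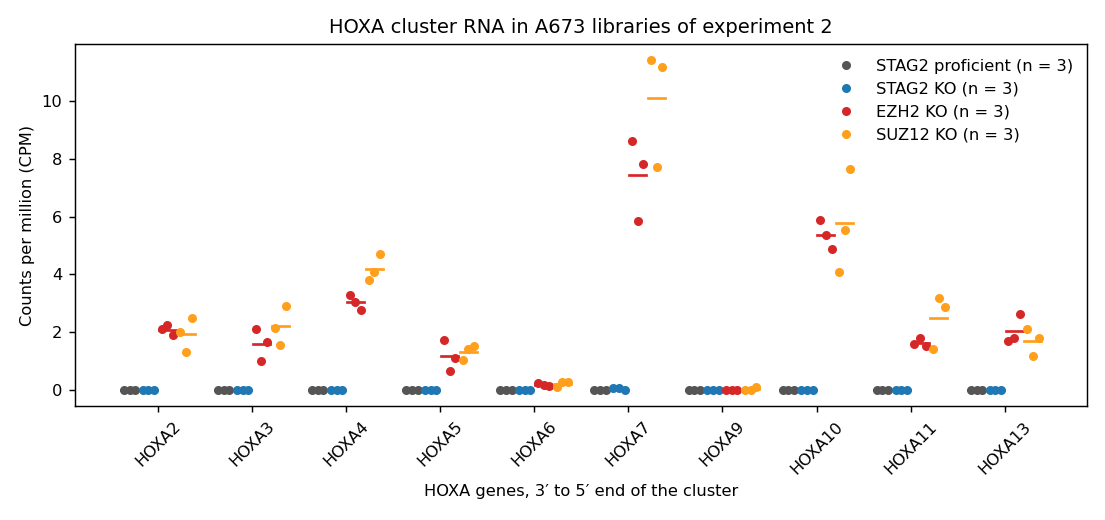
Level in CPM of 10 HOXA genes in the 12 A673 libraries of experiment 2, in their order along the cluster, where each point is 1 library and each short line the mean of 3. Proficient and STAG2 KO libraries lie at or next to 0, whereas EZH2 KO and SUZ12 KO libraries reach 8.63 and 11.4 CPM at HOXA7, with HOXA6 and HOXA9 near 0.

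The plot of HOXA levels by gene shows the separation of the 6 PRC2 KO libraries from the other 6. With the controls at 0, folds can be given only as bounds against a floor of 3 counts per library. HOXA7 was at least 42.0-fold higher in EZH2 KO and at least 57.1-fold higher in SUZ12 KO, and HOXA10 at least 30.3-fold and 32.6-fold. Over the 10 HOXA genes with counts in every clone of a KO, the bounds ran from 1.03-fold to 42.0-fold with a median of 11.7-fold in EZH2 KO, and from 1.21-fold to 57.1-fold with a median of 13.2-fold in SUZ12 KO. By edgeR's quasi-likelihood test, 9 HOXA genes were called higher in both KOs, at adjusted p from 4.4e-05 to 0.0022 in EZH2 KO and from 3.1e-05 to 0.0013 in SUZ12 KO. These 9 were the only HOXA genes with enough counts to be tested, and they passed that filter through the KO libraries alone, so their number adds nothing to the values above.

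Of the 5 posterior HOXC genes, 3 were called higher in EZH2 KO and 4 in SUZ12 KO, where 12% and 14.7% of all 15130 genes tested were. HOXC12 was at 2.96, 3.91 and 4.96 CPM in the controls, 5.35, 9.12 and 18.8 CPM in EZH2 KO and 30.7, 23.0 and 23.5 CPM in SUZ12 KO, so that no group overlapped with the controls and the 2 KOs did not overlap each other. The log2 fold change was 1.58 ± 0.40 (SE; adjusted p = 0.02) in EZH2 KO and 2.77 ± 0.41 (adjusted p = 0.00085) in SUZ12 KO. HOXC11 was at 2.34, 1.93 and 1.12 CPM in the controls, 4.10, 5.79 and 5.53 CPM in EZH2 KO and 6.64, 6.40 and 6.16 CPM in SUZ12 KO. Its log2 fold changes were 1.61 ± 0.38 (adjusted p = 0.015) and 1.90 ± 0.38 (adjusted p = 0.0048). HOXC13, a regulator of hair and nail formation, rose from 9.81, 8.73 and 11.3 CPM to 16.2, 19.1 and 16.1 CPM in EZH2 KO (log2 fold change 0.87, adjusted p = 0.011) and to 20.5, 22.2 and 19.1 CPM in SUZ12 KO (1.12, adjusted p = 0.002). HOXC10 was at 13.9, 13.03 and 14.4 CPM in the controls, 19.1, 24.2 and 22.3 CPM in EZH2 KO and 26.0, 29.4 and 27.3 CPM in SUZ12 KO. It passed the test in SUZ12 KO (log2 fold change 1.07 ± 0.27, adjusted p = 0.015) and not in EZH2 KO (0.76 ± 0.27, adjusted p = 0.079). In the proficient libraries of experiments 1 and 3 HOXC10 was at 24.5 to 34.3 CPM. The SUZ12 KO clones lay within that range and the EZH2 KO clones below it.

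The central HOXC genes did not pass the test in either KO. HOXC4, HOXC5, HOXC6 and HOXC8 had log2 fold changes from -0.58 to 0.68 in EZH2 KO and from -0.70 to 0.76 in SUZ12 KO. HOXC6, one of the highest HOXC genes, was at 20.4, 17.7 and 19.5 CPM in the controls, 12.7, 11.6 and 12.02 CPM in EZH2 KO and 11.4, 8.17 and 14.2 CPM in SUZ12 KO (adjusted p = 0.12 and 0.054). HOXC9, the least posterior of the posterior genes, did not pass either (-0.19 and -0.33). Of the 9 HOXC genes, 3 were called higher in EZH2 KO (median log2 fold change 0.68) and 4 in SUZ12 KO (median 0.76), against medians of 0.04 and 0.01 over all genes tested.

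In the HOXB cluster the changes were few. HOXB13, the most posterior gene and a factor of prostate and tail development, rose from 18.1, 17.2 and 20.1 CPM to 37.3, 34.6 and 28.9 CPM in EZH2 KO (log2 fold change 0.95 ± 0.24, adjusted p = 0.02) and to 37.1, 42.4 and 26.0 CPM in SUZ12 KO (0.998 ± 0.24, adjusted p = 0.012). HOXB2, an anterior hindbrain gene, was at 19.7, 15.5 and 20.5 CPM in the controls, 12.2, 11.5 and 10.1 CPM in EZH2 KO and 8.93, 10.5 and 12.05 CPM in SUZ12 KO. It was called lower in SUZ12 KO (log2 fold change -0.75 ± 0.22, adjusted p = 0.031) and missed the threshold in EZH2 KO (-0.63 ± 0.22, adjusted p = 0.074). The HOXB2 call was kept in 6 of 11 alternative settings and the HOXB13 call in EZH2 KO in 5. HOXB7, the highest HOXB gene per kb, was at 23.9, 24.9 and 27.7 CPM in the controls and 27.0 to 30.4 CPM in EZH2 KO and 18.4 to 22.2 CPM in SUZ12 KO (adjusted p = 0.41 and 0.45). HOXB3 was at 20.8, 20.1 and 24.3 CPM in the controls and 16.9 to 20.04 CPM in the 6 clones, all below the lowest control (adjusted p = 0.57 and 0.48). The other tested HOXB genes, HOXB4, HOXB5, HOXB6, HOXB8 and HOXB9, did not pass.

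HOXD genes went in both directions. HOXD9 was at 87.0, 76.9 and 79.0 CPM in the controls, 40.7, 53.2 and 43.7 CPM in EZH2 KO and 45.4, 40.1 and 46.2 CPM in SUZ12 KO, with log2 fold changes of -0.73 ± 0.14 (adjusted p = 0.0051) and -0.81 ± 0.14 (adjusted p = 0.002). HOXD10 was at 49.2, 50.3 and 50.6 CPM in the controls, 27.8, 37.1 and 27.4 CPM in EZH2 KO and 28.0, 23.9 and 23.9 CPM in SUZ12 KO (-0.61, adjusted p = 0.022, and -0.92, adjusted p = 0.002). Both genes were below every control in all 6 clones. HOXD11 was at 67.0, 61.8 and 60.8 CPM in the controls, 43.8, 56.4 and 43.3 CPM in EZH2 KO and 42.5, 43.8 and 42.8 CPM in SUZ12 KO. HOXD8 was at 85.4, 85.1 and 77.5 CPM, then 56.5, 64.6 and 57.2 CPM, then 55.3, 58.1 and 64.1 CPM. HOXD11 and HOXD8 were called lower in SUZ12 KO (-0.48, adjusted p = 0.018, and -0.41, adjusted p = 0.038) and not in EZH2 KO (-0.31, adjusted p = 0.11, and -0.39, adjusted p = 0.058). The HOXD8 call in SUZ12 KO was kept in 4 of 11 alternative settings and the HOXD10 call in EZH2 KO in 5. These genes are known as neighbours in limb patterning.

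HOXD13, at the posterior end of the same cluster and the gene that shapes the digits, moved the other way. It was at 74.1, 70.1 and 68.3 CPM in the controls, 100.4, 82.9 and 94.3 CPM in EZH2 KO and 98.5, 120.5 and 97.9 CPM in SUZ12 KO, all above the controls. Its log2 fold changes were 0.47 ± 0.14 (adjusted p = 0.042) and 0.65 ± 0.14 (adjusted p = 0.0074). The EZH2 KO call was kept in 2 of 11 alternative settings. HOXD3 and HOXD4 had log2 fold changes from -0.09 to 0.18 in the 2 KOs, and HOXD12 of 0.55 and 0.28, none of which passed.

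Over all clusters, 35 HOX genes were tested. In EZH2 KO 14 were called higher and 2 lower, and of all 15130 genes tested 12% were called higher and 3.69% lower. In SUZ12 KO 15 were called higher and 5 lower, against 14.7% and 5.87% of all genes. The higher calls include 9 HOXA genes in each KO, which passed the filter on low counts only through the KO libraries. Outside HOXA 26 genes were tested, of which 5 were called higher and 2 lower in EZH2 KO and 6 higher and 5 lower in SUZ12 KO. Of the 12 posterior genes among these, 5 were higher and 2 lower in EZH2 KO, and 6 higher and 3 lower in SUZ12 KO. Of the 11 central genes edgeR called none in EZH2 KO (2 at an unadjusted p under 0.05) and 1 lower in SUZ12 KO, and of the 3 anterior genes none in EZH2 KO (1 at an unadjusted p under 0.05) and 1 lower in SUZ12 KO. Whether the zones differ was not tested. A direct test of EZH2 KO against SUZ12 KO called none of the 35 HOX genes by edgeR, where 0.00661% of all genes, a single gene, were called; 2 HOX genes had an unadjusted p under 0.05 and DESeq2 called none. HOXC12 was higher in SUZ12 KO than in EZH2 KO by 1.20 ± 0.38 on the log2 scale, which did not pass. The spread in this fit was estimated from all 12 libraries, STAG2 KO clone no. 5 included. With the controls and 1 KO alone, 21 HOX genes were called in EZH2 KO and 22 in SUZ12 KO, and HOXB9 was then among them in both. These counts include the 9 HOXA genes. The share of all genes called in this setting is not given here, so the counts are not read as a result about HOX genes.

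**Figure D2:**
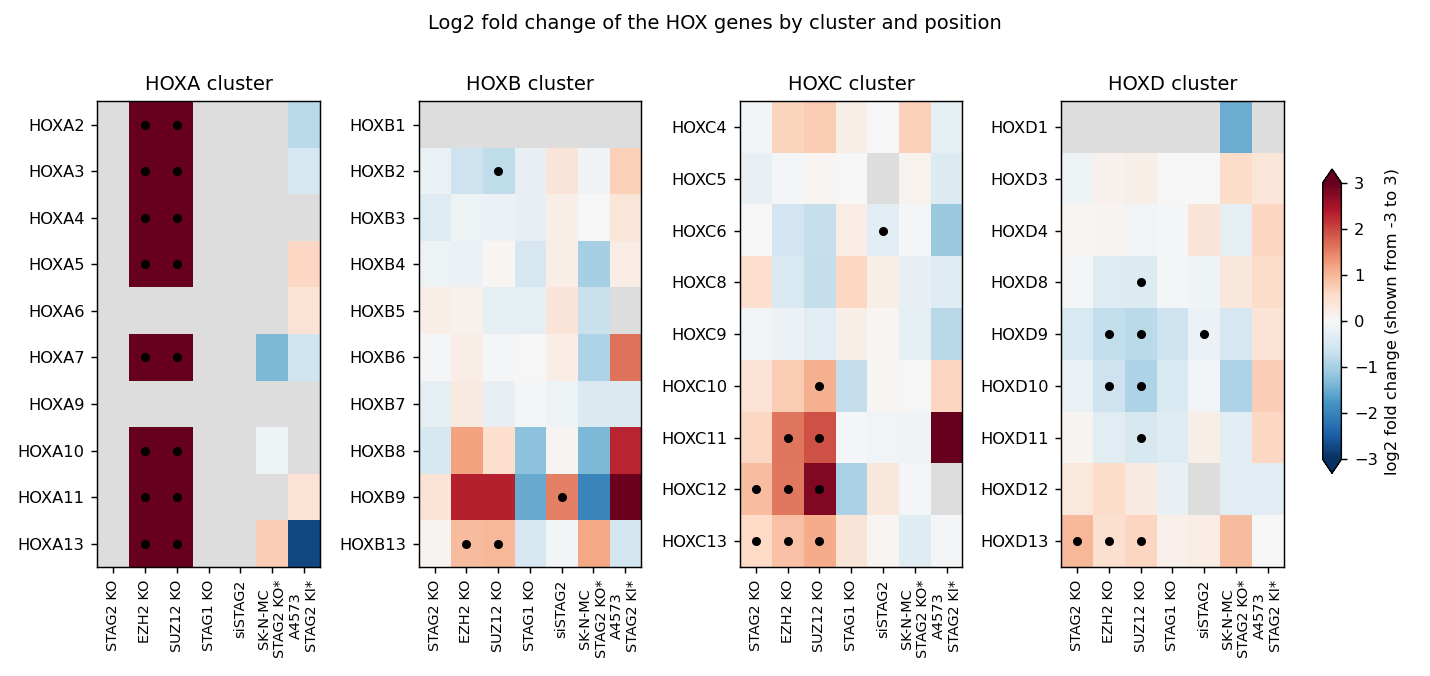
Log2 fold change of 38 HOX genes (rows, in paralog order) in 7 comparisons (columns), with colours capped at -3 and 3, black dots for calls at an adjusted p under 0.05, and grey for genes not tested. Columns marked with an asterisk compare 1 library with 1 library and have no test. HOXA genes are called in the EZH2 KO and SUZ12 KO columns and not tested in the other 3 A673 columns.

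Genes beside the HOXA cluster were followed because the cluster is surrounded by genes of other function. SKAP2, a signalling adaptor that ends 97.75 kb from the cluster, was at 0.74, 0.71 and 0.84 CPM in the controls, 37.9, 39.9 and 22.4 CPM in EZH2 KO and 40.7, 38.0 and 29.1 CPM in SUZ12 KO (log2 fold change 5.53 ± 0.39 and 5.62 ± 0.39, adjusted p = 1.3e-05 and 1.1e-05). SNX10, a sorting nexin 718.6 kb away on the same side, went from 0.06, 0 and 0.11 CPM to 1.88, 3.71 and 2.77 CPM and to 5.61, 5.35 and 5.62 CPM (5.51, adjusted p = 0.015, and 6.48, adjusted p = 0.005). JAZF1, a zinc finger gene whose near end is 630.5 kb from HOXA13, went from 0.11, 0 and 0.17 CPM to 17.9, 14.5 and 17.6 CPM and to 13.03, 16.2 and 14.9 CPM (7.41 and 7.22, adjusted p = 0.0002 and 0.00016). These 3 genes were above all controls in every PRC2 KO library. SNX10 and JAZF1 had at most 3 counts in each control, so the size of their fold changes is uncertain. They passed the filter on low counts through the PRC2 KO libraries, so their calls add nothing to the values given.

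Other neighbours between them moved little. EVX1, a homeobox gene 42.61 kb beyond HOXA13, stayed at 0 to 0.14 CPM. HIBADH, a metabolic gene, was at 17.6 to 20.7 CPM in the controls and 22.7 to 36.8 CPM in the 6 clones and was not called. TAX1BP1, an autophagy receptor that overlaps the end of JAZF1, was at 101 to 114 CPM in the controls and 114 to 147 CPM in the clones, with log2 fold changes of 0.47 (adjusted p = 0.025) and 0.39 (adjusted p = 0.047). Whether the neighbours change through the same event as the HOXA genes was not tested.

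**Figure D3:**
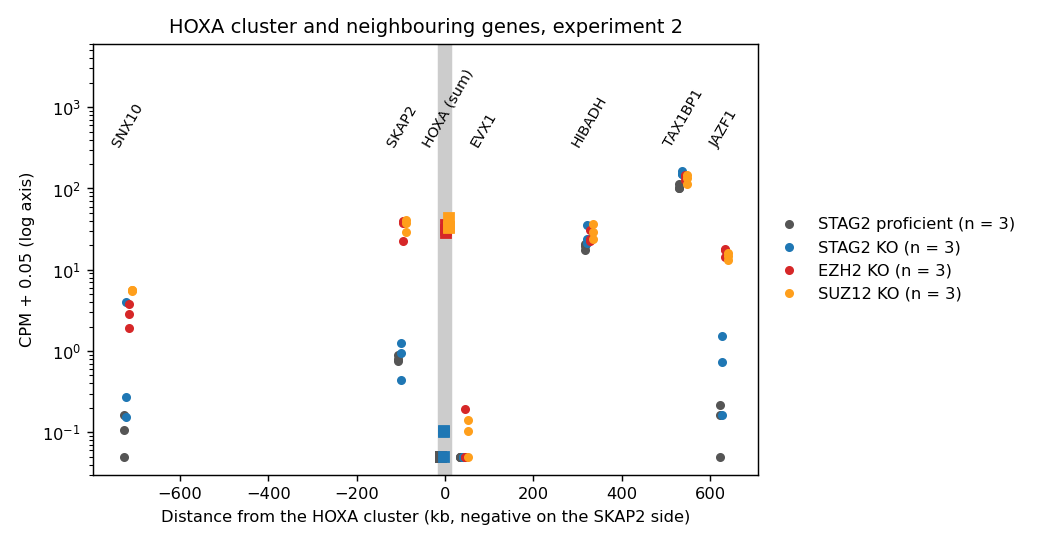
CPM plus 0.05 on a log axis against distance from the HOXA cluster in kb, for 6 neighbouring genes (circles) and the sum of the 11 HOXA genes (squares), with 1 point per library of experiment 2. SKAP2, SNX10 and JAZF1 lie higher in EZH2 KO and SUZ12 KO than in the proficient libraries, and SNX10 is also high in 1 STAG2 KO library (3.94 CPM).

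In the plot of CPM against distance, the called genes SNX10 and SKAP2 lie on one side of the cluster, and on the other side EVX1 and HIBADH, which were not called, lie between the cluster and the called genes TAX1BP1 and JAZF1. Across the 27 flanking genes of the 4 clusters, 24 were tested, of which 6 were higher and 2 lower in EZH2 KO (12% and 3.69% of all genes) and 6 higher and 3 lower in SUZ12 KO (14.7% and 5.87%). Beyond the HOXA neighbours these were EVX2, a homeobox gene 8.759 kb from HOXD13 (log2 fold change 2.78 and 3.50), and TTLL6, a tubulin-modifying enzyme gene 33.48 kb from HOXB13 (2.82 and 2.59), both higher. TTLL6 was at 0.58 to 0.84 CPM in the controls of experiment 2 and 1.57 to 6.06 CPM in the PRC2 KO clones. The proficient libraries of experiments 1 and 3 were at 1.36 to 12.4 CPM, so its rise holds only against the controls of experiment 2. The higher genes include SNX10, JAZF1 and EVX2, which had at most 3 counts in each control. These passed the filter on low counts through the PRC2 KO libraries. CBX1, a heterochromatin protein gene, and COPZ1, a coatomer gene, were lower in both (-0.63 and -0.49, and -0.47 and -0.46), and CHN1 in SUZ12 KO (-0.64).

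Of 18 long noncoding RNAs (lncRNAs) of the clusters, 8 were tested. HOTAIR, from the HOXC cluster and known for its link to PRC2, was higher in both (log2 fold change 1.37, adjusted p = 0.045, and 1.61, adjusted p = 0.017), and HOXC13-AS in SUZ12 KO (1.63, adjusted p = 0.022). HOTAIR was at 0.78 to 1.20 CPM in the controls of experiment 2, 1.77 to 3.66 CPM in EZH2 KO and 2.16 to 3.40 CPM in SUZ12 KO. The proficient libraries of experiments 1 and 3 were at 2.19 to 4.54 CPM, so the rise holds only against the controls of experiment 2. HOTTIP, at the HOXA13 end, reached 0.32 CPM at most.

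HOX proteins bind DNA with TALE homeodomain partners. Of 9 such genes, PKNOX2 was higher in EZH2 KO and SUZ12 KO (log2 fold change 1.32 and 1.501), PBX2 was higher (0.44) and MEIS2 lower (-1.26) in SUZ12 KO, and the others were not called. Of 9 trithorax and demethylase regulators, genes that counteract Polycomb, none was called in EZH2 KO (3 at an unadjusted p under 0.05) and KMT2A was called lower in SUZ12 KO (-0.42). Of all genes tested, 12% were called higher and 3.69% lower in EZH2 KO, and 14.7% and 5.87% in SUZ12 KO. The counts over these short lists and the lncRNAs are therefore not read as results about them.

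The effect of STAG2 loss on the same genes was compared in 5 STAG2 KO clones and 6 proficient libraries of experiments 1 and 2 in a fit that allowed for the experiment. HOXD13 and the posterior genes HOXC12 and HOXC13 were higher in STAG2 KO. The HOXA cluster stayed silent: 3 of the 5 clones had no HOXA count, and the other two had 1 count each, on HOXA7. Of 26 HOX genes tested, 3 were called higher and none lower by edgeR, against 5.87% higher and 6.34% lower of the 14215 genes tested; 5 HOX genes had an unadjusted p under 0.05. DESeq2 called 5, the same 3 and 2 lower genes, HOXB3 and HOXD9. The median log2 fold change was -0.02 over the HOX genes and 0.01 over all genes.

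HOXD13 gave the most stable difference. In experiment 1 it was at 59.8, 61.1 and 64.5 CPM in the proficient libraries and at 133 and 145 CPM in the STAG2 KO clones. In experiment 2 it was at 74.1, 70.1 and 68.3 CPM in the proficient libraries and at 117, 153 and 110 CPM in STAG2 KO no. 2, no. 3 and no. 5. All 5 clones were above all 6 controls. The log2 fold change was 1.004 ± 0.11 (adjusted p = 0.00025), 1.17 ± 0.10 in experiment 1 alone and 0.89 ± 0.15 in experiment 2 alone, and it passed the threshold in 19 of 19 alternative settings. STAG2 KO clones exceeded EZH2 KO clones by 0.43 ± 0.14 on the log2 scale (adjusted p = 0.048, kept in 2 of 8 alternatives), and the difference from SUZ12 KO was 0.26 ± 0.14 (adjusted p = 0.20).

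HOXC12 was at 11.7, 11.98 and 7.72 CPM in the proficient libraries of experiment 1 and 15.4 and 12.3 CPM in STAG2 KO. In experiment 2 it was at 2.96, 3.91 and 4.96 CPM and at 11.8, 8.61 and 9.35 CPM. The STAG2 KO clones of each experiment were above its controls, and the log2 fold change of 0.93 ± 0.25 (adjusted p = 0.033) was kept in 8 of 19 alternatives. HOXC13 was at 9.87, 11.6 and 8.76 CPM against 13.3 and 15.4 CPM in experiment 1, and at 9.81, 8.73 and 11.3 CPM against 13.4, 19.0 and 14.5 CPM in experiment 2. Its log2 fold change was 0.61 ± 0.16 (adjusted p = 0.028), kept in 12 of 19. For both genes, the groups within an experiment did not overlap.

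HOXB8 and HOXB9, chosen here after their values were seen, depended on 1 clone. HOXB9, a posterior gene of the thorax and mammary gland, was at 22.7, 24.1 and 21.6 CPM in the proficient libraries of experiment 1 and at 2.72 and 1.47 CPM in the STAG2 KO clones. In experiment 2 the controls were at 1.82, 2.05 and 3.79 CPM, and STAG2 KO no. 2, no. 3 and no. 5 at 1.06, 0.90 and 40.01 CPM. HOXB8, its neighbour, went from 8.12, 6.84 and 9.65 CPM to 0.98 and 1.13 CPM in experiment 1, and in experiment 2 it was at 1.54, 0.96 and 3.01 CPM against 0.50, 0.21 and 10.6 CPM. Clone no. 5 was above every control in its experiment for both genes and the other 4 clones were below the controls of theirs.

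With all 5 clones, HOXB9 had a log2 fold change of 0.42 ± 1.65 (adjusted p = 0.92) and HOXB8 of -0.49 ± 1.17 (adjusted p = 0.85). Without clone no. 5, HOXB9 was at -2.45 ± 0.44 (adjusted p = 0.0024) and HOXB8 at -2.67 ± 0.38 (adjusted p = 0.00064), and 8 HOX genes were called: HOXC8 (0.75), HOXC12 (0.92), HOXC13 (0.65) and HOXD13 (1.09) higher, and HOXB3 (-0.41), HOXB8, HOXB9 and HOXD9 (-0.49) lower. Over all genes, calls then rose from 1736 (12.2% of the 14215 tested with all 5 clones) to 4219. The rise from 3 to 8 HOX calls thus came with a rise over all genes and is not read as particular to HOX genes. In experiment 1 alone HOXB9 was at -3.44, HOXB8 at -2.94 and HOXC8 at 1.09, all called, and in experiment 2 alone only HOXD13 was called. A test of whether the STAG2 KO effect differed between experiments called 0% of the 14616 genes by edgeR, with 4483 genes and 4 HOX genes at an unadjusted p under 0.05. DESeq2 called 2216 genes in that test, HOXB8 (difference 4.02 ± 1.503, adjusted p = 0.049) and HOXC10 (1.30 ± 0.43, adjusted p = 0.028) among them.

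**Figure D4:**
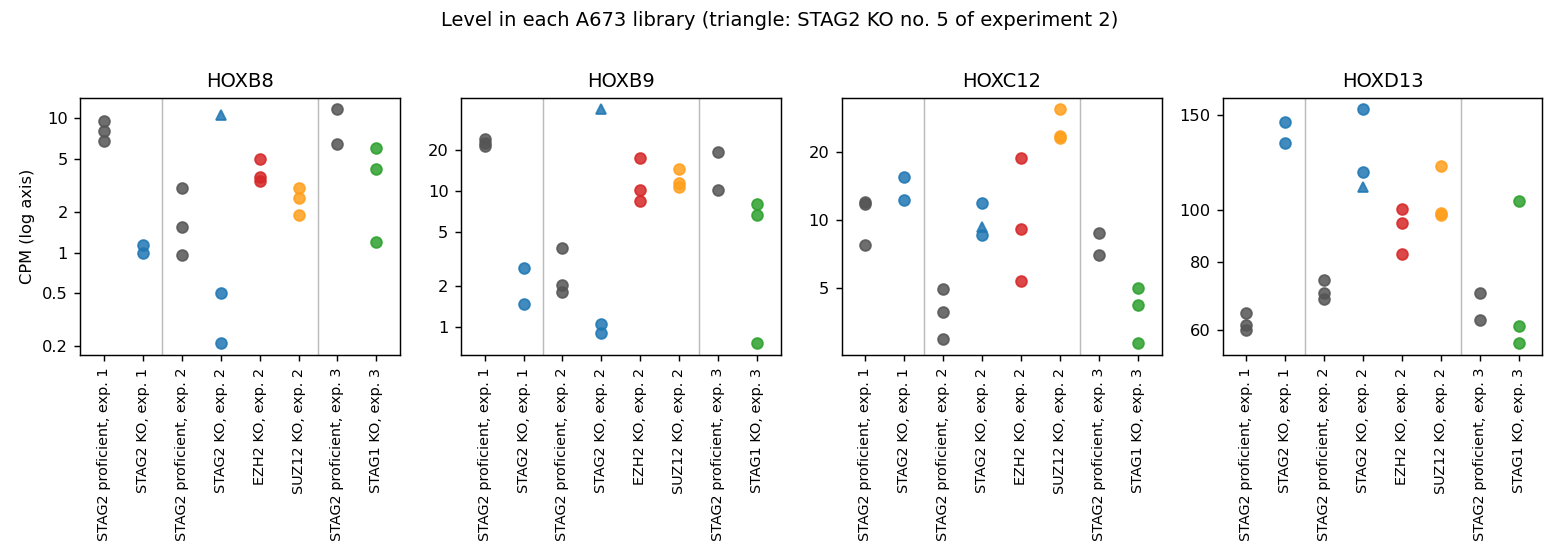
CPM on a log axis of HOXB8, HOXB9, HOXC12 and HOXD13 in each of the 22 A673 count libraries, grouped by arm and experiment, with a triangle for STAG2 KO no. 5 of experiment 2. At HOXB9 the triangle is at 40.01 CPM and the other 4 STAG2 KO clones at 0.90 to 2.72 CPM, whereas at HOXD13 all 5 clones lie above the 6 controls of their experiments.

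The plot by library also shows the different control levels of HOXB8 and HOXB9 between experiments 1 and 2. In the direct comparison of STAG2 KO with the PRC2 KO clones of experiment 2, which does not use the controls, 5 HOX genes were higher and 9 lower in STAG2 KO than in EZH2 KO, where 8.04% and 12.4% of all genes were. Against SUZ12 KO, 5 were higher and 10 lower, where 11.2% and 14.5% of all genes were. The 9 lower genes were HOXA genes in both, joined by HOXC12 against SUZ12 KO (-1.38 ± 0.39, adjusted p = 0.022). The HOXA genes passed the filter on low counts only through the PRC2 KO libraries, so their number adds nothing to the values above. The higher genes included HOXB2 (0.76 and 0.89), HOXD8 (0.59 and 0.62), HOXD10 (0.65 and 0.95) and HOXD11 (0.53 and 0.70) in both comparisons.

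Of the flanking genes, 3 of 22 tested were higher in STAG2 KO and none lower, where 5.87% and 6.34% of all genes were. The higher genes were EVX2 (log2 fold change 3.20 ± 0.64, adjusted p = 0.0081), LNPK, an endoplasmic reticulum gene 89.88 kb from HOXD13 (0.43), and CHN1 (0.54). They lie on the HOXD13 side of the HOXD cluster, CHN1 at 1087 kb from it. ATP5MC3 and ATF2, which lie between LNPK and CHN1, were not called. EVX2 was at 0.05 to 0.21 CPM in the proficient libraries and at 0.16 to 2.55 CPM in the clones, with clone no. 5 of experiment 2 the lowest. It had at most 4 counts in each of these proficient libraries and passed the filter on low counts through STAG2 KO clones. The size of its fold change is thus uncertain, and its call adds nothing to these values. None of 8 cluster lncRNAs was called by edgeR (2 at an unadjusted p under 0.05). Of the TALE genes, PBX3 (2.05) and PKNOX2 (0.93) were higher, and no trithorax gene was called (1 at an unadjusted p under 0.05).

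Markers of other cell types were counted beside these results. Of the 4 mesenchymal genes COL1A1, COL1A2, DCN and LUM, 4 were lower in STAG2 KO, and their summed level was 707 to 1660 CPM in the proficient libraries and 194 to 241 CPM in STAG2 KO of experiment 2, with none at 0 in the whole group. In EZH2 KO it was 719 to 991 CPM and in SUZ12 KO 508 to 682 CPM, with COL1A2 lower in both, and COL1A1 had log2 fold changes of 1.24 (adjusted p = 0.077) and 0.40 (adjusted p = 0.54). EPCAM, an epithelial marker, was at 0.06 to 0.17 CPM in the controls of that experiment and at 0.59, 2.27 and 1.19 CPM in SUZ12 KO, where it was called higher (log2 fold change 3.52, adjusted p = 0.025). It had at most 3 counts in each control and passed the filter on low counts through SUZ12 KO. The other epithelial markers did not rise with it across the clones: KRT5 was at 0 in SUZ12 KO, and CDH1 at 0, 0.45 and 0 CPM. The part of these shifts in the HOX results was not tested; in bulk RNA, fewer cells of a type and less RNA per cell cannot be told apart. Leukocyte markers summed to at most 0.45 CPM in every A673 library, with CD3E at 0 in all but the STAG1 KO group.

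For STAG1, the libraries labelled STAG1 KO were compared with the 2 proficient libraries of experiment 3. None of 26 HOX genes tested was called by edgeR, while 2.77% of all 14373 genes were called higher and 2.5% lower; 4 HOX genes had an unadjusted p under 0.05, and DESeq2 called none. HOXD13 was at 62.5 and 70.2 CPM in the controls and at 61.0, 56.6 and 104 CPM in the libraries labelled no. 1, no. 5 and no. 7, so the groups overlapped (log2 fold change 0.15 ± 0.27, adjusted p = 0.77). HOXB9 was at 19.5 and 10.3 CPM in the controls and 0.76, 6.64 and 8.05 CPM in the libraries labelled STAG1 KO, which lay below but did not pass (-1.52 ± 0.79, adjusted p = 0.29). HOXA counts were 0 or 1 in each of these libraries. With 2 controls, and with 1 library that kept STAG1 RNA, this comparison rests on fewer libraries than the others.

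The STAG2 KO effect was tested against the STAG1 KO effect in a fit of 16 libraries, in which 6.01% of 15041 genes were called. HOXC12 alone among the HOX genes was called, with a difference of 1.89 ± 0.42 on the log2 scale (adjusted p = 0.017). It was at 8.74 and 7.02 CPM in the controls of experiment 3 and at 4.19, 2.85 and 5.01 CPM in the libraries labelled STAG1 KO, that is below the controls, whereas it was higher in STAG2 KO. Without either control of experiment 3 the call was lost. For HOXD13 the difference of effects was 0.84 ± 0.26 (adjusted p = 0.077). Of the TALE genes, MEIS1 (-0.86) and MEIS2 (-0.88) were lower in the libraries labelled STAG1 KO, and no flanking gene, lncRNA or trithorax gene was called (2, 0 and 3 at an unadjusted p under 0.05).

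The siRNA comparison asked what the acute loss of STAG2 does in parental A673. Values here are normalised reads. STAG2 was at 1068, 992 and 1090 in siC no. 1, no. 2 and no. 3 and at 144, 180 and 153 in siSTAG2 no. 1, no. 2 and no. 3 (log2 fold change -2.72). HOXB9 was the HOX gene that rose, from 21.9, 10.8 and 19.8 to 46.6, 62.1 and 42.5, with no overlap (1.51 ± 0.26, adjusted p = 0.00014 by limma). HOXC6 was lower, from 416, 440 and 388 to 367, 312 and 323 (-0.31 ± 0.08, adjusted p = 0.0094). HOXD9 went from 722, 735 and 712 to 632, 636 and 640 (-0.18 ± 0.07, adjusted p = 0.048), a call kept in 4 of 11 alternatives. HOXD13 was at 225, 224 and 215 in siC and 260, 258 and 260 in siSTAG2; the groups did not overlap, but it did not pass the test (0.23 ± 0.09, adjusted p = 0.078).

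Of 24 HOX genes tested, 1 was thus higher and 2 lower, while 9.54% of the 12060 genes tested were called higher and 11% lower. Their median log2 fold change was 0.07, against 0.01 over all genes. Of the 11 HOXA genes, 10 had no read in the 6 libraries and HOXA7 had at most 1 read in each, so they were not tested. HOXC12 and HOXC13 were at 6.67 to 23.2 and 35.4 to 48.3 normalised reads over the 6 libraries, with log2 fold changes of 0.33 (adjusted p = 0.60) and 0.06 (adjusted p = 0.88). HOXD11 was the most abundant HOX gene of these libraries, at 2200 to 2611 in siC and 2561 to 2703 in siSTAG2, and overlapped between groups (0.17 ± 0.06, adjusted p = 0.052). The difference between KO and knockdown was not tested, since the values were normalised separately. Of the other lists, MEIS1 (0.29) was higher and MEIS3 (-0.77) and PSIP1 (-0.19) lower; 3 of 18 tested flanking genes were higher and 2 lower. None of 6 lncRNAs was called by limma (1 at an unadjusted p under 0.05). The 4 mesenchymal genes were lower here too, with log2 fold changes from -1.34 for COL1A2 to -3.38 for LUM.

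SK-N-MC and A4573 were measured with 1 library per arm, so their differences have no replicate check and no test. Unlike A673, both lines expressed HOXA genes. SK-N-MC WT had 246 HOXA counts, 1.21% of its HOX CPM, of which HOXA10 (125 counts) and HOXA7 (104 counts) made up most, and HOXA2, HOXA3 and HOXA4 were at 0. A4573 WT had 912 HOXA counts, 5.48% of its HOX CPM, led by HOXA7 with 387, HOXA11 with 209 and HOXA13 with 142. HOXD13 was the highest HOX gene of both lines in CPM, at 125 CPM in SK-N-MC WT and 181 CPM in A4573 WT.

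In SK-N-MC, STAG2 KO was compared with WT over the 30 HOX genes whose counts summed to 10 or more in the 2 libraries. HOXB13 was past 2-fold higher, with 1323 counts in WT and 2686 in KO (38.6 and 85.6 CPM, log2 ratio 1.15). HOXB9 (887 and 205 counts, -1.98), HOXB8 (421 and 149 counts, -1.36), HOXA7 (104 and 36 counts, -1.36), HOXB4 (243 and 110 counts, -1.003) and HOXD1 (13 and 3 counts, -1.49) were past 2-fold lower. HOXD13 was at 125 CPM in WT and 242 CPM in KO (0.95), just under 2-fold. Over all genes, 10.4% were past 2-fold higher and 11.2% lower. PTPRC, a leukocyte marker, was at 2.89 CPM in SK-N-MC WT and 56.6 CPM in the KO, and CD3E, a T cell marker, was at 0 in the KO. The mesenchymal sum was 687 CPM in WT and 194 CPM in KO, of which COL1A2 made up 503 and 16.9 CPM, while COL1A1 was at 182 and 158 CPM, DCN at 1.46 and 17.0 CPM and LUM at 0.73 and 1.34 CPM. The epithelial marker EPCAM was at 0.79 and 9.11 CPM. The part of these in the HOX differences was not tested.

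In A4573, restoring STAG2 was compared with WT over 32 HOX genes. HOXB9 had 302 counts in WT and 2340 in KI (9.49 and 73.0 CPM, log2 ratio 2.94), HOXB8 13 and 72 counts (2.29), HOXB6 29 and 95 counts (1.64) and HOXC11 5 and 69 counts (3.33). HOXA13 (142 and 20 counts, -2.72) and HOXC6 (293 and 135 counts, -1.12) were past 2-fold lower. HOXD13 hardly differed, at 181 and 184 CPM (0.02). Over all genes 14.8% were past 2-fold higher and 7.3% lower. EZH2 RNA was itself at 113 CPM in WT and 42.0 CPM in KI in this pair, and its part in the HOX differences was not tested.

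Set side by side in the direction of low minus high STAG2, 26 HOX genes had a value in both pairs and 15 of them the same sign. Neither this share nor that of genes past 2-fold in both pairs was worked out over all genes, so neither is read as agreement. HOXB8 and HOXB9 were the 2 genes past 2-fold in both pairs, lower in the arm with less STAG2 each time. In A673, the same genes were lower than the controls in 4 of 5 STAG2 KO clones and higher in clone no. 5, and after the knockdown HOXB9 rose while HOXB8 was at 22.9 to 31.5 normalised reads in siC and 23.2 to 32.5 in siSTAG2.

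**Figure D5:**
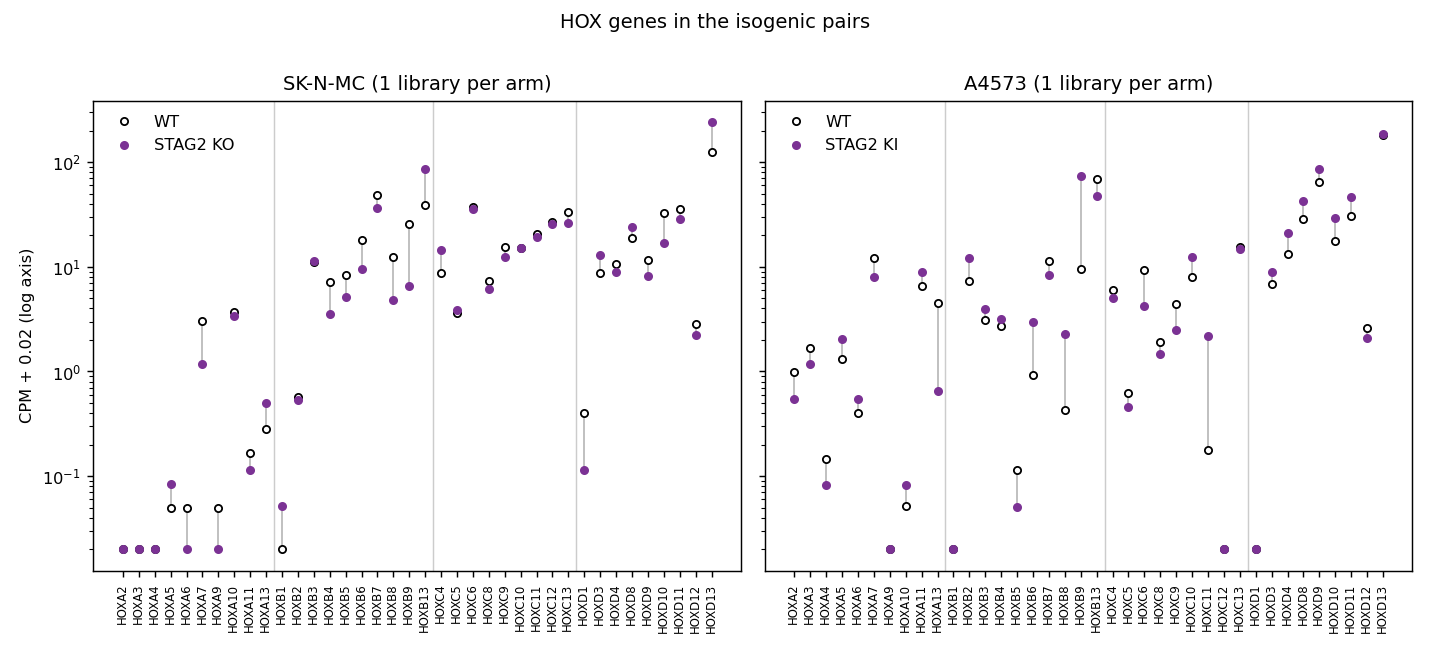
CPM plus 0.02 on a log axis of 38 HOX genes in SK-N-MC (left) and A4573 (right), with open circles for WT, filled circles for STAG2 KO or STAG2 KI, and a line joining the 2 libraries of a gene. HOXB9 moves from 25.9 to 6.53 CPM in SK-N-MC and from 9.49 to 73.0 CPM in A4573, while HOXD13 moves from 125 to 242 CPM and from 181 to 184 CPM.

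In A673, HOXB1 was at 0 in every library but 1 SUZ12 KO clone with a single count, and HOXD1 (at most 0.77 CPM), HOXD12 (0.54 to 1.30 CPM) and HOXC5 (0.51 to 2.24 CPM) were the other genes outside HOXA that stayed low in all 22 libraries. They were not called in any comparison in which they were tested.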

How the data were processed

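Gene-level counts of 26 libraries were deposited by the authors in 4 count tables, and normalised values of 6 knockdown libraries in a separate table. Per the labels, RNA was primed with oligo(dT), amplified after template switching and sequenced in non-directional libraries. The submitters' processing notes name TopHat2 2.0.0, Bowtie 0.12.7, SAMtools 0.1.16, FastQC, DESeq2 and hg38; the counting program and annotation are not given in the sources used here. The knockdown table holds a normalised signal: the authors divided the counts by a size factor for each library. All values (100%) were whole multiples of 1 read within 0.01, and edgeR on the reads recovered from them called 2503 genes, 3 of them HOX genes. No column of sample values was left unused (0 columns).

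The members and lists were chosen with earlier results of these data known. Counts were tested with edgeR 4.0.16 in R 4.3.3 (TMM, filterByExpr with the design, quasi-likelihood test) and knockdown values with limma 3.58.1 (trend) on log2(value + 1) for genes with a mean of at least 10, a scale that understates changes of low genes. Calls are at a Benjamini-Hochberg adjusted p under 0.05 over all genes tested. STAG2 KO was fitted over experiments 1 and 2 with experiment as a covariate; EZH2 KO and SUZ12 KO were fitted in 1 fit of the 12 libraries of experiment 2. Folds against a group at 0 are bounds against a floor of 3 counts per library, which covers counting error only. In the pairs, genes with at least 10 counts were compared as log2 ratios of CPM with a prior count of 2. The named HOX genes are those called in at least 1 of the 5 KO or knockdown comparisons with a group mean of at least 1 CPM (10 normalised reads for the knockdown) and the 2 highest of each cluster by CPM in proficient A673. The STAG2 KO libraries of experiment 1 and those labelled STAG1 KO could be matched to a group but not to a clone title, so their numbers are those of the columns. The 2 WT clone libraries of experiment 1 were close to sampling noise (mean chi-square 1.31 per gene, against 8.82 to 131 in other clone pairs) and were kept as 2. Alternatives were DESeq2 1.42.0, DESeq2 size factors, no filter, other controls and leaving out each library. The tests were tested on simulated data. Promoters came from RefSeq (GRCh38.p14) and gene positions from GENCODE; the proteins were not used here. Values of 1 HOX gene, 1 lncRNA and 1 marker gene are not reported here; counts and sums over lists include them.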

Additional observations from a re-analysis of the deposited data

Results flagged for a closer look

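In the 8 proficient A673 libraries and the 5 STAG2 KO clones, the highest or lowest value of a HOX gene was compared with the rest by Dixon's gap over range. This singled out 5 of 50 combinations of a gene and a set, beside a nominal chance rate of 5%. Both sets pool experiments whose levels differ, and genes within a set are not independent, so that rate need not hold here. In the 5 STAG2 KO clones, clone no. 5 of experiment 2 was far from the others at 3 genes: HOXB9 at 40 CPM against 0.90 to 2.72, HOXB8 at 10.6 CPM against 0.21 to 1.13, and HOXC8 at 9.14 CPM against 21.4 to 28.3. HOXB6 was at 0.69 CPM in clone no. 3 of experiment 2 against 4.50 to 6.25 CPM in the other 4. In the 8 proficient libraries, HOXC5 was at 0.51 CPM in WT clone no. 2 of experiment 2 against 1.60 to 2.24 CPM.

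The effect of STAG2 KO on HOXC12 differed from that of the libraries labelled STAG1 KO by 1.89 on the log2 scale (edgeR, adjusted p = 0.017), with a range of adjusted p from 0.00048 to 0.14 over 18 alternatives, in 15 of which it passed.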

How the results depend on the processing

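Over all alternatives, 96 of 110 counts of HOX calls stayed within 1.5 times the main count, and of 774 values of named genes 663 kept direction and call, 99 lost the call, 2 gained it and 10 reversed. The HOXA calls in EZH2 KO and SUZ12 KO were lost in none of 11 alternatives each. These genes were at 0 in the controls and passed the filter on low counts through the KO libraries alone. That their calls were kept therefore adds nothing to their values, and the counts above include them. The cause of the following changes was not tested. Leaving out 1 library, HOX calls ran from 10 to 15 in EZH2 KO (main 16; lowest without WT clone no. 2), from 1 to 3 after siSTAG2 (main 3; lowest without siSTAG2 no. 2), from 1 to 8 in STAG2 KO (main 3; 1 without WT clone no. 1, WT clone no. 2 or STAG2 KO no. 3 of experiment 2, and 8 without STAG2 KO no. 5), and from 0 to 2 in the STAG2 against STAG1 test (main 1; 0 without either control of experiment 3, and 2 without STAG1 KO no. 7 or STAG2 KO no. 5). DESeq2 called 5 HOX genes in STAG2 KO, 2 in the STAG2 against STAG1 test and 2 in the test between experiments (main 0). In experiment 2 alone, 1 HOX gene was called in STAG2 KO. HOXB8 in STAG2 KO ran from -2.67 to 0.19 when 1 library was left out and was 1.12 in experiment 2 alone. HOXB9 ran from -2.45 to 1.45 when 1 library was left out, and was -0.16 with WT clone controls only, -0.42 with no experiment term and -3.44 in experiment 1 alone. With the replicate block, EZH2 KO against SUZ12 KO still had 0 HOX calls and siSTAG2 had 4, HOXD11 added. Same-numbered siRNA libraries correlated at 0.004 to 0.04 and same-numbered KO clones at -0.15 to 0.41, so the numbers were not taken as pairs. For genes at 0 in the controls, depth limits any fold to a bound. Over all genes, DESeq2 made more calls than edgeR in STAG2 KO (2621 against 1736), STAG1 KO (1943 against 757), the STAG2 against STAG1 test (1541 against 904), EZH2 KO against SUZ12 KO (22 against 1) and the test between experiments (2216 against 0). STAG2 KO had 3663 calls in experiment 1 alone and 494 in experiment 2 alone, and EZH2 KO had 1441 with WT clone controls only (main 2377). Leaving out 1 library, calls over all genes ran from 1115 (without WT clone no. 1 of experiment 2) to 4219 (without STAG2 KO no. 5) in STAG2 KO, from 0 (without either control) to 1310 (without STAG1 KO no. 1) in STAG1 KO, and from 174 (without the parental control of experiment 3) to 1861 (without STAG2 KO no. 5) in the STAG2 against STAG1 test. The lowest counts were 1169 in EZH2 KO and 1874 in SUZ12 KO (main 3112), both without WT clone no. 1 of experiment 2.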
